A study of Arabidopsis thaliana with 8 samples.

Results

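Roots of the Arabidopsis thaliana mutant bin2-1 were compared with wild-type roots of the same Columbia background, neither of them labelled as treated with abscisic acid (ABA). The comparison takes every gene with at least 1 FPKM (a fragment count scaled for transcript length and sequencing depth) in either group, which is 19270 of the 33557 genes in the table (57.4%). RNA came from about the last 1 cm of the root of 7-day-old seedlings grown upright on 1/2 MS medium at 22 °C, with 16 h of light a day. Of the 8 libraries of the series, 4 enter here: 2 of untreated wild type and 2 of bin2-1, the second of each being named a repeat. The other 4 are wild type given 100 µM ABA for 3 h and the double mutant bzr1-D/bin2-1. All 4 groups carry the Columbia background, and the labels do not say whether the mutant roots received ABA or whether a repeat came from separately grown plants. The table holds 1 value per group, so no replicate error can stand beside any value below.

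Brassinosteroids are plant steroid hormones that promote growth. They bind the receptor kinase BRI1 at the cell surface, and the signal turns off BIN2, a kinase of the GSK3 type. When BIN2 is active it phosphorylates the transcription factors BZR1 and BES1 and keeps them from acting on their target genes. The bin2-1 allele makes a kinase that the hormone can no longer turn off, so the mutant is a dwarf that is insensitive to brassinosteroid. In bzr1-D plants a stabilised BZR1 is made. Both alleles change the protein, so BIN2 mRNA is no check of the genotype labels.

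In all, 10124 of 19190 tested genes differed between bin2-1 and wild type at q under 0.05 in the authors' deposited table, which is 52.8%. Of these, 5012 were higher in bin2-1 (26.1% of the genes tested) and 5112 were lower (26.6%). These 2 shares are the background against which each gene group below is read. "Rose" and "fell" refer to bin2-1 relative to untreated wild type and are used only of genes past that threshold. Differences are given as log2 of (bin2-1 + 0.1)/(wild type + 0.1), in FPKM, a scale that understates the change of genes with low levels. The median of all genes tested was -0.01 on that scale, and 77.9% lay within 2-fold. A change of at least 2-fold was seen in 1943 genes that rose (10.1%) and 1954 that fell (10.2%). At least 4-fold changes numbered 543 upward (2.83%) and 607 downward (3.16%). At least 8-fold changes numbered 196 upward (1.02%) and 244 downward (1.27%). The test behind the p-values is not named and the smallest p, 5e-05, is shared by 5373 genes in the authors' deposited table. The q of the 450 called members of the gene lists ran from 0.000188, which 325 of them share, to 0.0498 in the authors' deposited table. Genes at the edge of the rule showed no break: 33.5% of the 182 genes with 1 to 1.1 FPKM in the higher group and 30.3% of the 178 with 0.9 to 1 FPKM had q under 0.05 in the authors' deposited table.

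**Figure D1:**
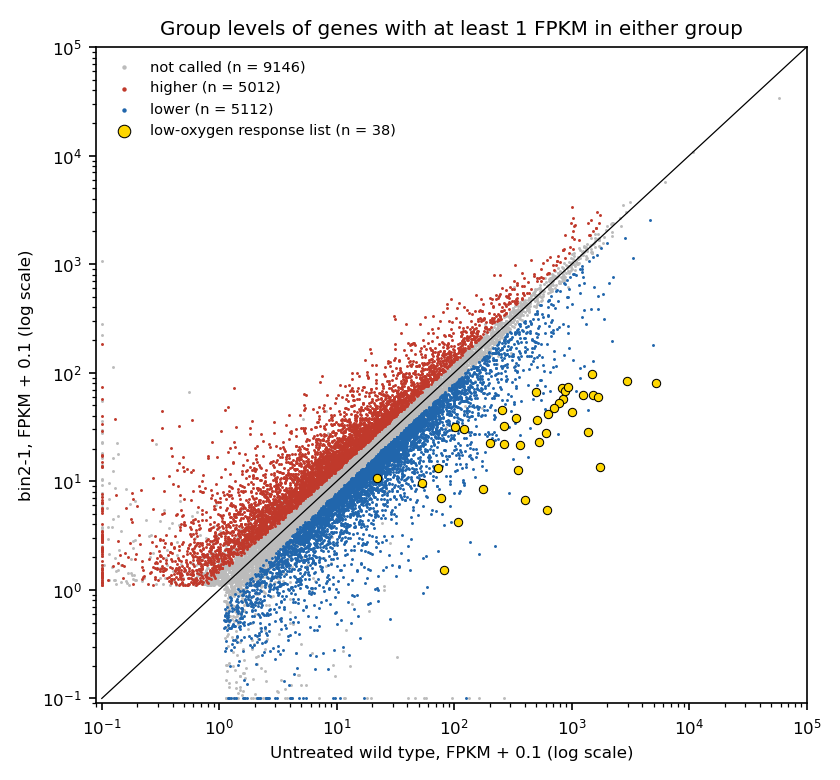
Group level of each gene in untreated wild type (horizontal axis) and bin2-1 (vertical axis), in FPKM + 0.1 on log scales, for genes with at least 1 FPKM in either group. Red genes were higher in bin2-1 (5012) and blue genes lower (5112) at q under 0.05, grey genes were not called, and the black line marks equal levels. The yellow points are the 38 genes of the low-oxygen list, all below the line.

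Genes of the low-oxygen response fell, with the lowest median of the gene lists. When oxygen runs short, ERF-VII transcription factors, which are otherwise broken down through oxidation by the PCO enzymes, switch on a core set of genes for fermentation, sugar breakdown and feedback. All 38 listed genes of this response had at least 1 FPKM and all 38 fell, beside a background of 26.6%. This list, like the others, was chosen with earlier results of these data known, so its counts are a description and no independent test. Of the 38, 36 fell at least 4-fold, as did 3.16% of all genes tested, and 31 fell at least 8-fold. Their median log2 difference was -3.92. Levels in wild type ran from 22.0 to 5208 FPKM with a median of 519, and in bin2-1 from 1.43 to 98.1 FPKM with a median of 31.7. Together they held 2.79% of all FPKM in wild type and 0.148% in bin2-1. Among the 500 highest of all genes with at least 1 FPKM in either group, 22 of them appeared in wild type and 0 in bin2-1.

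The sequence before the start of 2 of the genes with the greatest fall is shown because AAACCA, the core of the anaerobic response element, was first described in plant ADH genes. Sequences are from the RefSeq annotation of build TAIR10.1, 5′ to 3′ on the strand of the gene and ending at the base before its annotated start, with the core or its reverse complement in capitals. The ADH1 stretch is chr1:28975005-28975254 on the plus strand, and that of NIP2;1 is chr2:14515989-14516082 on the minus strand, cut short where a neighbouring gene begins.
ADH1: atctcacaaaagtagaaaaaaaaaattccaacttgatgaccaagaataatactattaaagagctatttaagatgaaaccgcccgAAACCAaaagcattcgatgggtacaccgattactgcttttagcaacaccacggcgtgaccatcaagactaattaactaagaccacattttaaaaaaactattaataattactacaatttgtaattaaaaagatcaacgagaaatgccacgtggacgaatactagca
NIP2;1: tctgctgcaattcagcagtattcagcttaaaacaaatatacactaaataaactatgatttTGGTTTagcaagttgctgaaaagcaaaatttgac
Windows of 250 bases before the start were searched whole, also where they reach into a neighbouring gene. For NIP2;1 further matches lie beyond the printed stretch. On either strand of these windows, AAACCA occurred in 12 of the 38 low-oxygen genes (31.6%) and in 27.3% of all 27443 protein-coding genes. The letters alone therefore occurred in the list at about the share of all promoters. The hypoxia-responsive promoter element, a longer motif named HRPE, was found in 0 of the 38 windows and in 0.0401% of all windows, a search by exact match that says nothing of the factors that bind it.

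The fermentation genes ADH1 and PDC1 carried the highest wild-type levels of the list. ADH1, alcohol dehydrogenase, which makes ethanol, stood at 5208 FPKM in wild type, the fourth highest gene of that group, and at 80.4 FPKM in bin2-1 (log2 -6.02, q = 0.000188 in the authors' deposited table). PDC1, pyruvate decarboxylase, the step before it, went from 2946 to 83.8 FPKM (-5.13), and its paralogue PDC2 from 501 to 65.7 FPKM (-2.93). The sucrose synthases SUS4 and SUS1, which split sucrose for glycolysis, went from 1380 to 28.5 FPKM and from 843 to 57.5 FPKM. PFK6, a phosphofructokinase, fell by 2.48 on the log2 scale. All 6 enzymes of this role thus fell.

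The sensors and regulators of the response fell with them. PCO1 and PCO2, plant cysteine oxidases that mark ERF-VII factors for breakdown, went from 200 to 22.4 FPKM and from 363 to 21.6 FPKM. HRE1 and HRE2, the ERF-VII genes that low oxygen induces, went from 634 to 41.1 FPKM and from 333 to 38.2 FPKM. HRA1, a trihelix protein that restrains RAP2.12, went from 528 to 23.0 FPKM (-4.51), and LBD41 from 825 to 72.5 FPKM (-3.51). The constitutive part of the pathway had smaller differences. RAP2.12, a main ERF-VII activator, had 88.1 FPKM in wild type and 109 in bin2-1 and was not called, while RAP2.2 (227 to 130 FPKM, -0.80) and RAP2.3 (70.9 to 31.5 FPKM, -1.17) fell. Of the 5 turnover genes PCO4 and ATE1 fell, by 0.62 and 0.40, and PCO3, PCO5 and the ubiquitin ligase PRT6 were not called. The whole list of 8 constitutive genes had 0 rises, 4 falls and a median of -0.30.

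NIP2;1, a channel of the aquaporin family known to transport lactic acid, had the lowest log2 difference of the list, from 1750 to 13.5 FPKM (-7.01, q = 0.000188 in the authors' deposited table). The haemoglobin HB1, which scavenges nitric oxide, went from 999 to 43.7 FPKM (-4.51). ACO1, an ethylene-forming oxidase, went from 510 to 36.2 FPKM, and the NADPH oxidase RBOHD from 264 to 32.0 FPKM. These genes serve different processes and share their induction in low oxygen. The smallest fall was of CYP707A3, an ABA-degrading enzyme, from 22.0 to 10.6 FPKM (-1.05). The 16 listed genes of less known function all fell, with a median log2 difference of -4.35. AT5G10040 went from 614 to 5.29 FPKM (-6.83) and AT3G29970 from 81.5 to 1.43 FPKM (-5.74). AT4G10265 and AT4G10270 are near-identical neighbours that may share reads, and both fell.

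**Figure D2:**
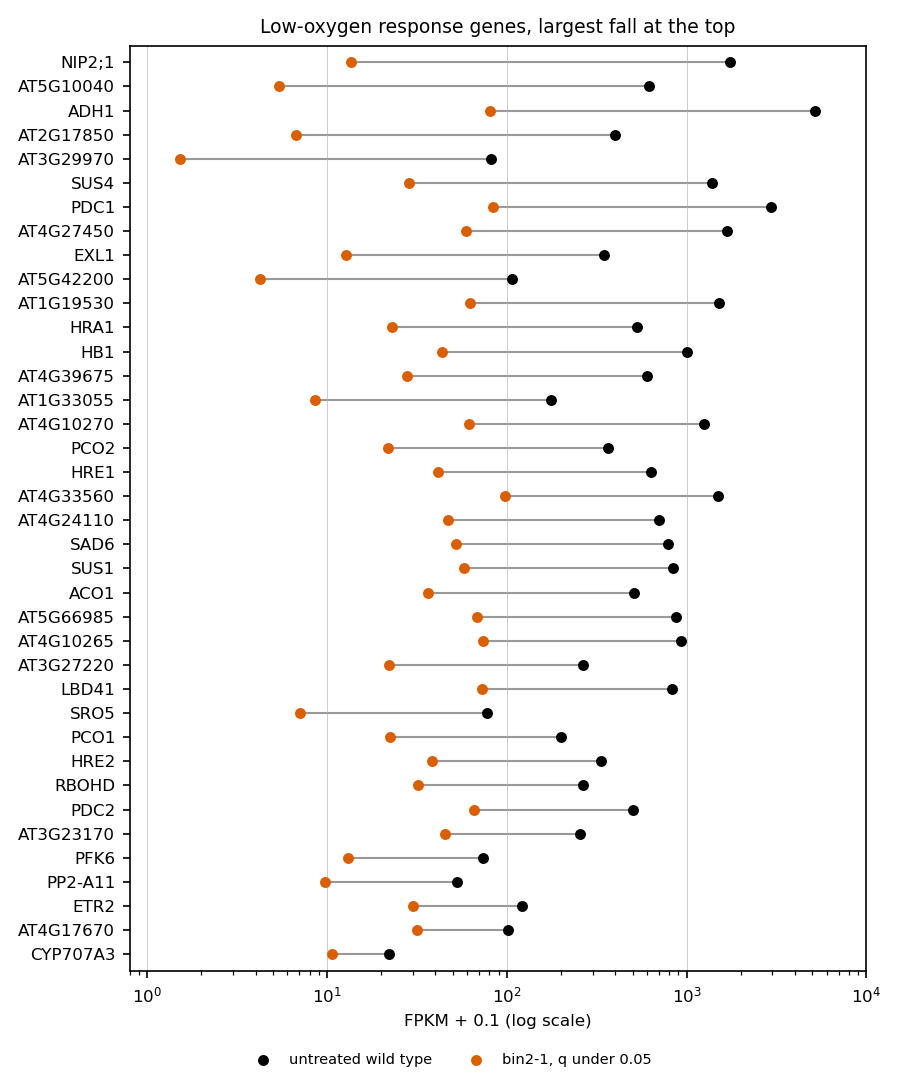
Level of each of the 38 low-oxygen genes in untreated wild type (black) and bin2-1 (orange), in FPKM + 0.1 on a log scale, ordered by log2 difference from NIP2;1 at the top to CYP707A3 at the bottom. In bin2-1 all 38 lie under 100 FPKM, and in wild type 33 lie above it.

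The other tables of the series hold the same genes in the other groups, each scaled on its own, with wild-type values 0.938 times and bin2-1 values 1.04 times those of the table used here. The ABA comparison shares the untreated wild-type libraries and the bzr1-D comparison shares the bin2-1 libraries. In those tables ADH1 had 4887 FPKM in untreated and 2270 in ABA-treated wild type, and 83.8 in bin2-1 and 44.5 in bzr1-D/bin2-1. For PDC1 the same groups held 2763, 1610, 87.4 and 31.7 FPKM. For NIP2;1 they held 1642, 84.4, 14.1 and 6.14 FPKM. Over the 38 genes, the median level was 170 FPKM in ABA-treated wild type and 23.9 in bzr1-D/bin2-1. For these 3 genes the levels in both wild-type groups were above those in both mutant groups.

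Heat shock genes, which encode chaperones, also fell as a group. Of 12 members 10 fell and 0 rose, with a median of -3.04, beside 26.6% lower among all genes tested. The small heat shock protein HSP17.6II went from 54.4 to 0.834 FPKM (-5.87) and HSP23.6-MITO from 13.9 to 0.561 FPKM (-4.40). HSP17.4, at 35.4 FPKM in wild type, fell by 4.01 on the log2 scale. HSP101, a disaggregase, went from 21.0 to 4.93 FPKM, and the heat shock factors HSFA2 and HSFA7A from 8.51 to 1.94 FPKM and from 61.5 to 15.1 FPKM. The 2 that were not called were HSP21, at 3.94 and 0.0326 FPKM, and an HSP70, at 34.4 and 27.6 FPKM. Sequence-alike members of this family may share reads. The constitutive chaperone HSC70-1 rose from 1759 to 2845 FPKM (0.69, q = 0.000522 in the authors' deposited table).

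Genes of the brassinosteroid pathway were called in both directions, where 52.8% of all genes tested were called. BIN2 mRNA fell from 102 to 66.1 FPKM (-0.63). Of the 10 GSK3-like kinase genes 2 rose and 2 fell (20.0% each), with a median of -0.15. Among all genes tested 26.1% rose and 26.6% fell. The closest paralogues, BIL1 (57.3 and 52.3 FPKM) and BIL2 (57.6 and 51.4 FPKM), were not called. SK41 rose from 22.5 to 36.8 FPKM (0.71). Of the 6 BZR1 family genes, 4 fell and 1 rose, with a median of -0.74. BZR1 fell from 72.2 to 34.4 FPKM (-1.07), and BES1 from 52.3 to 27.3 FPKM (-0.93), while BEH3, at 7.48 FPKM in wild type, rose (1.22).

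Upstream, the receptor BRI1 had 49.0 and 39.4 FPKM and its co-receptor BAK1 53.3 and 49.3 FPKM, and neither was called. The BRI1 homologues BRL1 and BRL3, which also bind brassinosteroid, rose, BRL3 from 2.34 to 5.70 FPKM (1.25). Of the kinases and phosphatases between receptor and BIN2, BSK1 fell from 47.7 to 33.7 FPKM (-0.50) and BSL1 from 32.4 to 13.9 FPKM (-1.22). CDG1 and BSU1 were under 1 FPKM in both groups. In this list 3 of 11 genes tested rose and 2 fell, near the background shares.

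Synthesis genes of the hormone had more rises than falls, and inactivation genes the reverse. Among 10 synthesis enzymes 4 rose (40.0%) and 2 fell (20.0%), with a median of 0.28. Among all genes tested the shares were 26.1% and 26.6%, so this short list lay near the background. DWF4, the C-22 hydroxylase that limits the pathway and is repressed by BZR1, rose from 6.31 to 14.7 FPKM (1.21), and BR6OX2, which makes brassinolide, from 7.99 to 19.4 FPKM (1.27). CPD, another target of that feedback, had 28.0 and 32.9 FPKM and was not called, and DWF7, a sterol desaturase, fell from 124 to 69.8 FPKM (-0.83). Among the 6 inactivating enzymes tested, 4 fell (66.7%) and 2 rose (33.3%), with a median of -0.82. The hydroxylases BAS1 and SOB7, which inactivate brassinosteroids, went from 17.5 to 5.24 FPKM (-1.72) and from 18.1 to 5.64 FPKM (-1.66), and BEN1 from 125 to 59.7 FPKM. UGT73C5, a glucosyltransferase that may share reads with UGT73C6 (listed at 0), rose from 3.48 to 6.47 FPKM.

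Among small growth regulators of the bHLH type, BEE1, an early brassinosteroid-induced gene, fell from 15.2 to 0.469 FPKM (-4.75), the furthest of its list. The growth-promoting PRE genes went the other way or were not called: PRE6 rose from 15.6 to 44.2 FPKM and BNQ2 (also known as PRE2) from 2.48 to 5.28 FPKM, while PRE3 had 106 and 119 FPKM. Of their 5 growth-restraining partners AIF3 and AIF4 fell and AIF2 rose. Over the list 3 of 10 tested genes rose and 3 fell. The brassinosteroid response element bound by BZR1 (CGTGTG or CGTGCG, either strand, in the 250 bases before the start) occurred before 7.37% of genes that rose, 7.74% of genes that fell and 6.54% of genes not called, with 6.71% in all protein-coding genes. For the G-box (CACGTG) the shares were 7.37%, 7.38%, 7.16% and 6.49%.

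**Figure D3:**
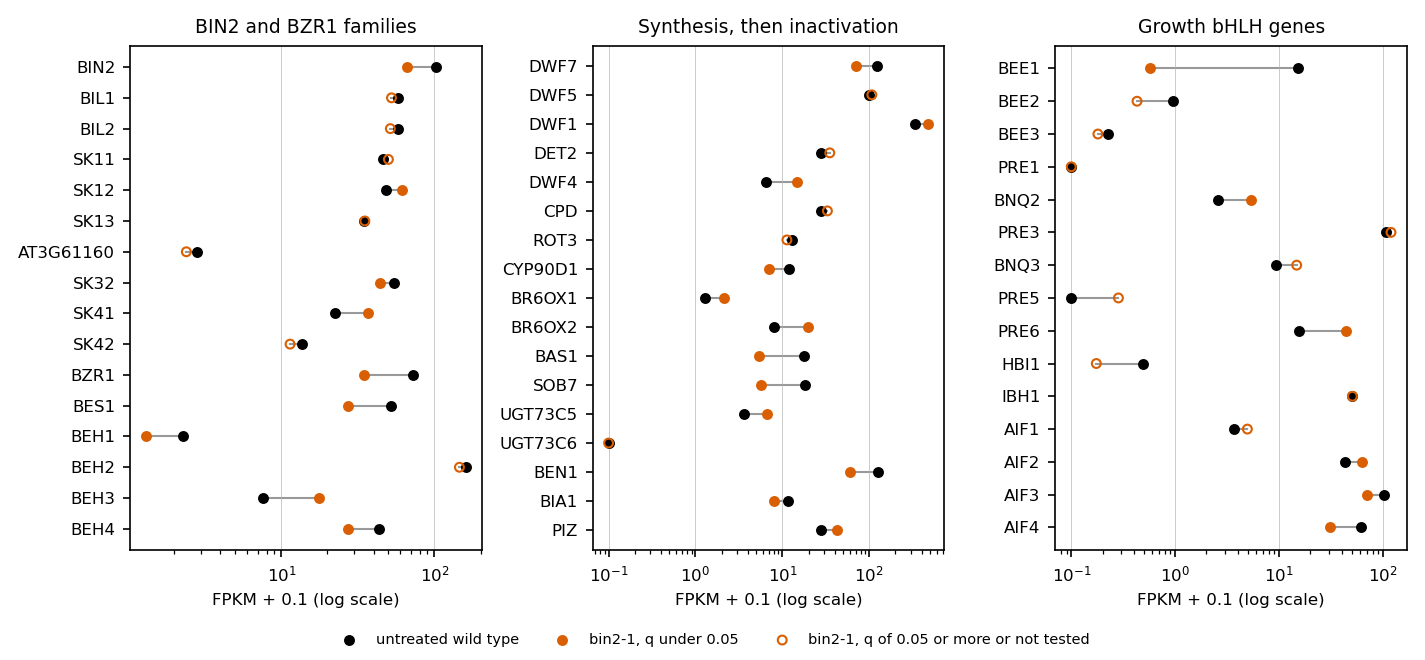
Levels in untreated wild type (black) and bin2-1 (orange; filled where q is under 0.05) of genes of the brassinosteroid pathway, in FPKM + 0.1 on a log scale, with genes listed at 0 plotted at 0.1. BIN2, BZR1 and BES1 are lower in bin2-1, DWF4 and BR6OX2 higher, BAS1 and SOB7 lower, and BEE1 goes from 15.2 to 0.469 FPKM.

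The 2 families of wall-loosening proteins went in opposite directions. Alpha-expansins, which loosen the wall without cutting it, had 14 rises and 0 falls among 16 tested, with a median of 1.84, and the other 9 of the 25 family members were under 1 FPKM in both groups. EXPA9 rose from 18.9 to 166 FPKM (3.13), EXPA14 from 14.7 to 67.2 FPKM (2.19), EXPA3 from 2.53 to 22.0 FPKM (3.07) and EXPA12 from 0.297 to 17.2 FPKM (5.44, q = 0.000828 in the authors' deposited table). EXPA6 (5.99 and 5.73 FPKM) and EXPA20 (4.79 and 6.21 FPKM) were not called. Xyloglucan endotransglucosylases (XTH), which cut and rejoin xyloglucan, had 16 falls and 6 rises among 27, with a median of -0.82. The summed level of the XTH family went from 3056 to 910 FPKM, and that of the expansins from 182 to 658 FPKM. XTH24 went from 593 to 74.7 FPKM (-2.99), XTH23 from 373 to 54.4 FPKM (-2.77), XTH4 from 302 to 44.5 FPKM (-2.76) and XTH18 from 287 to 63.7 FPKM (-2.17). Against them, XTH31, a member that can cut xyloglucan, rose from 1.23 to 71.6 FPKM (5.75), XTH32 from 0.796 to 4.11 FPKM and XTH13 from 3.58 to 16.1 FPKM.

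The list of primary wall cellulose synthesis had 1 rise and 4 falls in 9 tested, with a median of -0.07. The catalytic subunits of primary walls CESA1 (151 and 151 FPKM), CESA3 (114 and 129 FPKM) and CESA6 (91.3 and 87.1 FPKM) were not called, and CESA5 fell from 22.7 to 12.6 FPKM (-0.84). The endoglucanase KOR1 fell from 282 to 149 FPKM (-0.93) and COB, a wall protein of oriented growth, rose from 124 to 169 FPKM. The subunits of secondary walls CESA4 and CESA7 were not called either, and CESA8 fell by 0.41. In the xylem list, FRA8, a glucuronoxylan glycosyltransferase, fell from 50.5 to 10.5 FPKM (-2.25), and the lignin laccases LAC4, LAC11 and LAC17 rose, LAC17 from 5.16 to 12.5 FPKM (1.26). The list had 3 rises and 5 falls in 16.

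Most water channels fell. Of 23 aquaporins 15 fell and 5 rose, with a median of -0.54. In the plasma membrane PIP1;3 went from 932 to 230 FPKM (-2.02) and PIP2;7 from 612 to 183 FPKM (-1.74), and in the tonoplast TIP1;1 went from 1261 to 670 FPKM (-0.91) and TIP2;2 from 155 to 31.9 FPKM (-2.27). The boric acid channel NIP5;1 went from 120 to 41.9 FPKM. Rises were of PIP2;5 (1.37 to 7.38 FPKM), PIP2;6, PIP1;4, TIP4;1 (56.5 to 139 FPKM) and NIP1;1 (66.0 to 234 FPKM, 1.83). PIP2;2 and PIP2;3 are near-identical and may share reads.

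Cell type markers were read to see whether the tissue fitted its label. Markers of root tip tissues were present in both groups. Green tissue markers were low, at most 7.50 FPKM in wild type and 7.83 in bin2-1. Their median was 0.511 FPKM in wild type and 2.48 in bin2-1. In bulk tissue, fewer cells of a type and less RNA per cell cannot be told apart. Of the Casparian strip genes of the endodermis, CASP4 (9.93 and 11.4 FPKM) and the peroxidase PER64 (44.2 and 42.2 FPKM) were not called. Those that fell included CASP1 from 167 to 102 FPKM (-0.71), CASP2 from 68.0 to 41.4 and CASP5 from 3.69 to 1.73, with their regulator MYB36 from 28.2 to 17.9 FPKM. SHR and SCR, which specify the layer, were not called (19.8 and 21.8 FPKM, 22.2 and 23.3 FPKM). The endodermis list had 6 falls and 0 rises in 10. Suberin genes, of the barrier laid down later, had 8 rises and 2 falls in 12, with ASFT, which adds ferulate, from 9.82 to 58.2 FPKM (2.55).

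In the epidermis, most root hair genes rose, and most genes of a mixed list of non-hair and patterning genes fell. Root hair genes had 7 rises and 2 falls in 10, 2 of the rises being EXPA7 and EXPA18 of the expansin family. RSL4, a bHLH factor that drives hair growth, rose from 6.63 to 26.8 FPKM (2.00), COBL9 from 12.7 to 36.9 FPKM (1.53) and RHD6 from 31.1 to 44.7 FPKM. RSL2 fell from 11.8 to 2.65 FPKM (-2.11), and the NADPH oxidase RHD2 from 22.8 to 14.1 FPKM. Of 6 non-hair and patterning genes 4 fell and 0 rose. GL2, which represses hair fate, fell to 7.73 FPKM (-1.23), MYB23 to 1.79 FPKM (-1.12) and TRY from 5.18 to 1.29 FPKM (-1.92). WER (22.1 and 18.1 FPKM) and CPC (23.4 and 21.2 FPKM) were not called.

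In the stem cell niche WOX5, the quiescent centre gene, rose from 1.94 to 10.7 FPKM and PLT2 from 1.93 to 5.12 FPKM (1.36), while PLT1, PLT3, BBM and AGL42 were not called. The root cap list split evenly: BRN1 (5.36 to 16.7 FPKM) and FEZ rose, and SMB (15.7 to 9.58 FPKM) and BRN2 fell. In the phloem list BAM3, a receptor kinase of early phloem, rose from 3.37 to 20.7 FPKM (2.58), and SEOR1, a protein of mature sieve elements, fell from 23.9 to 10.8 FPKM (-1.13). Lateral root initiation genes had 1 rise and 1 fall in 6, PUCHI (1.15) and ARF19 (27.5 to 14.9 FPKM). Of green tissue markers, LHCB1.2, LHCB1.3, LHCB3 and RCA rose among 7 tested (57.1%, beside 26.1% of all genes tested). Another 6 of the 13 were under 1 FPKM in both groups. Over the 13 markers the summed level was 22.6 FPKM in wild type and 36.7 in bin2-1, 0 of them were listed at 0, and their part in other differences was not tested. Copies of LHCB1 may share reads.

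Cell cycle genes had 7 rises and 6 falls in 23 (median 0.22), so neither share was far from the background. The D-type cyclins CYCD3;3 (7.21 to 17.2 FPKM, 1.24) and CYCD4;1 (3.40 to 7.16 FPKM) rose, and CYCD1;1 (4.02 to 1.88 FPKM), the mitotic kinase CDKB2;1 (26.5 to 18.3 FPKM) and CYCB2;1 fell. CYCB1;1, a mark of dividing cells, had 7.38 and 9.16 FPKM and was not called. Among inhibitors KRP1 fell to 4.89 FPKM (-1.16) and KRP2 rose from 7.81 to 13.9 FPKM. SMR5, an inhibitor that stress induces, had 2.57 FPKM in wild type and was listed at 0 in bin2-1 (q = 0.0179 in the authors' deposited table).

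Most tested cytokinin genes rose. Type-A response regulators (ARRs) are early targets of cytokinin and dampen its signal. Of 10, 7 rose and 1 fell. ARR6 went from 1.12 to 20.0 FPKM (4.04), ARR4 from 13.5 to 99.3 FPKM (2.87), ARR5 from 3.96 to 29.1 FPKM (2.85) and ARR3 from 8.64 to 47.6 FPKM (2.45). ARR17 was the exception, from 4.55 to 1.98 FPKM, and ARR7 and ARR16 were not called. The summed level of the 10 genes was 60.8 FPKM in wild type and 260 in bin2-1. Of genes for synthesis and breakdown, IPT7, which makes cytokinin, rose from 0.413 to 3.89 FPKM (2.96) and IPT3 from 3.00 to 5.79 FPKM, while IPT5 was not called. The degrading oxidase CKX3 rose from 0.391 to 4.80 FPKM (3.32), and CKX4 fell from 1.04 to 0.235 FPKM. Over both roles 12 of 18 tested genes rose and 2 fell, with a median of 1.09.

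Ethylene genes had 12 rises and 3 falls in 19, with a median of 0.52. The ACC synthases, which make its precursor, included ACS9 (0.223 to 4.91 FPKM, 3.96), ACS6 (5.50 to 24.2 FPKM) and ACS11 (6.12 to 17.1 FPKM, 1.47). ACO1, listed with the low-oxygen genes, went the other way, as above. The receptor ERS1 rose from 60.9 to 130 FPKM and EIN2, the central transducer, from 18.6 to 43.4 FPKM (1.22). EIN3, its transcription factor, fell from 95.5 to 68.8 FPKM, and EBF1, the F-box protein that removes EIN3, rose from 54.3 to 108 FPKM.

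Jasmonate genes differed by role. Of synthesis enzymes 6 of 10 tested rose and 2 fell, with AOS from 20.1 to 54.5 FPKM (1.44). AOC genes are close copies and may share reads: AOC2, AOC3 and AOC4 rose and AOC1 fell. Of 14 signalling genes 7 fell and 1 rose. JAZ repressors fell in JAZ8 (21.9 to 4.83 FPKM, -2.16), JAZ3 (150 to 58.3 FPKM, -1.36), JAZ9, JAZ4 and JAZ2, and JAZ10 rose to 52.6 FPKM (0.81). The factor MYC2 fell from 121 to 71.8 FPKM and the receptor COI1 from 28.6 to 19.9 FPKM.

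Auxin genes moved in both directions, with 10 rises and 6 falls in 22. Among YUC synthesis enzymes YUC3 fell from 25.4 to 6.09 FPKM (-2.04), YUC5 rose from 0.906 to 6.88 FPKM (2.80) and YUC9 from 5.55 to 15.2 FPKM. The carriers changed less: PIN2 rose from 60.4 to 102 FPKM (0.75), PIN7 from 19.8 to 32.4 and LAX3 from 21.5 to 36.9 FPKM, and PIN3 fell from 25.1 to 19.6 FPKM. The conjugating enzyme GH3.3 rose from 6.45 to 31.7 FPKM (2.28), and GH3.1, at 8.68 FPKM in wild type, fell (-1.70). In the gibberellin list 5 of 14 rose and 3 fell. GA3OX2, which makes active gibberellin, rose from 0.244 to 2.58 FPKM (2.96), and the receptor GID1A fell from 46.8 to 13.0 FPKM (-1.84).

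In the ABA signalling chain, most receptors and 2 of 3 kinases fell. The series title names ABI5, a transcription factor of ABA responses, which rose from 0.998 to 3.22 FPKM (1.60). Of 9 receptors 7 fell and 1 rose: PYR1 went from 455 to 156 FPKM (-1.54), PYL4 from 315 to 143 and PYL8 from 113 to 46.0 FPKM, and PYL1 rose from 16.5 to 26.6. The phosphatases, which hold the pathway off, had 4 rises and 0 falls in 6, ABI1 from 16.6 to 52.5 FPKM (1.66). Of the kinases OST1 fell from 56.8 to 8.92 FPKM (-2.66) and SNRK2.3 from 57.7 to 26.1, while SNRK2.2 had 77.2 and 82.4 FPKM and was not called. ABF1 and ABF4, factors that OST1-type kinases act on, fell from 81.1 to 28.1 FPKM and from 33.6 to 14.3 FPKM. The osmolyte genes were split too: ERD5, proline dehydrogenase, fell from 1326 to 278 FPKM (-2.25), and P5CS1, which makes proline, rose from 13.7 to 33.4 FPKM.

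Genes of indole defence metabolism rose as a group, with 14 rises and 1 fall in 16 tested and a median of 1.59. This pathway turns tryptophan into indole glucosinolates and the antimicrobial camalexin. The 3 MYB regulators rose, MYB34 from 6.99 to 40.2 FPKM (2.51). CYP79B2, which makes indole-3-acetaldoxime for both branches, rose from 28.3 to 126 FPKM (2.15), whereas its paralogue CYP79B3 fell from 78.6 to 35.0 FPKM (-1.16). CYP83B1 rose from 91.0 to 297 FPKM, UGT74B1 from 34.4 to 107 and SOT16 from 98.4 to 234 FPKM. Of camalexin enzymes, CYP71A12 rose from 0.223 to 30.9 FPKM (6.59), CYP71A13 from 0.0844 to 1.02 FPKM and PAD3 from 3.01 to 15.6 FPKM (2.34). CYP71A12 and CYP71A13 are near-identical, as are IGMT1 and IGMT2, and may share reads.

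Defence proteins of the salicylate response were near 0. PR1 was listed at 0 in both groups, PR2 at 0 and 0.0387 FPKM, and PR5 at 0.0284 and 0.0272 FPKM. Of 11 tested genes of immune receptors and salicylate regulation 8 rose and 2 fell. CBP60G, a regulator of salicylate synthesis, rose from 0.859 to 7.64 FPKM (3.01) and FMO1 from 0.181 to 1.15 FPKM, while NPR1, the salicylate receptor, fell from 32.5 to 17.2 FPKM (-0.92). WRKY factors split evenly, 20 up and 20 down in 62. WRKY22 fell from 65.2 to 5.35 FPKM (-3.58), WRKY11 from 127 to 29.6 and WRKY27, at 25.3 in wild type, by 2.06 on the log2 scale, and WRKY60 rose to 9.17 FPKM (2.63).

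Flavonoid genes rose in 7 of 8 tested, with a median of 1.86. CHS, chalcone synthase, the entry enzyme, went from 87.4 to 426 FPKM (2.29), CHI from 7.01 to 37.6, F3H from 12.5 to 55.1 and FLS1, flavonol synthase, from 9.32 to 33.7 FPKM. MYB12, the flavonol regulator, had 4.48 and 4.78 FPKM and was not called. Genes of the anthocyanin branch were at or near 0 in both groups: DFR and MYB75 were listed at 0 in both, and LDOX stood at 0.0225 FPKM in wild type and 0 in bin2-1. Glutathione transferase genes with a GSTU or GSTF number as symbol or synonym in RefSeq had 20 rises and 6 falls in 39, where the name GSTU12 stands for 2 genes, neither of them called. GSTU25 rose from 35.5 to 231 FPKM (2.70) and GSTU19 from 375 to 835 FPKM, and GSTF14 fell from 23.8 to 6.83 FPKM.

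**Figure D4:**
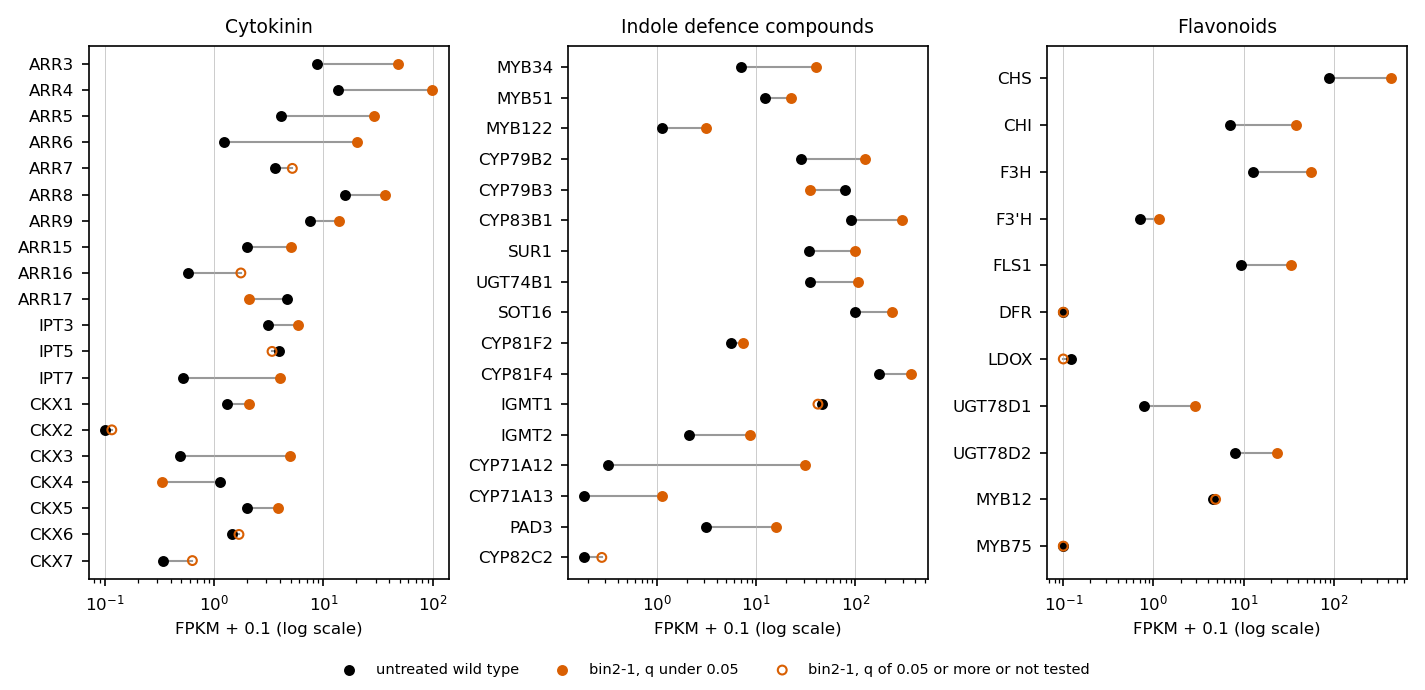
Levels in untreated wild type (black) and bin2-1 (orange; filled where q is under 0.05) of cytokinin, indole defence and flavonoid genes, in FPKM + 0.1 on a log scale, with genes listed at 0 plotted at 0.1. Most orange points lie to the right of the black ones, and ARR17, CKX4 and CYP79B3 are the called genes on the left.

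All 3 listed nitrate and nitrite reductases fell, while of 9 tested transporters 4 rose and 1 fell. NPF6.3, the dual-affinity nitrate transporter and sensor, went from 508 to 76.5 FPKM (-2.73). The nitrate reductases NIA1 and NIA2 went from 290 to 31.7 FPKM (-3.19) and from 431 to 107 FPKM (-2.01), and the nitrite reductase NIR1 from 105 to 41.8 FPKM. Rises were of NRT2.6, a member of the high-affinity family (0.166 to 24.0 FPKM, 6.50), NPF7.2, which takes nitrate out of the xylem (1.39 FPKM in wild type, 3.61), and the ammonium transporters AMT1;1 and AMT1;2 (7.77 to 43.8 FPKM, 2.48). NPF7.3 and NRT3.1 were not called. NRT2.1, the main high-affinity transporter, was under 1 FPKM in both groups.

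Sulfur genes had 9 rises and 3 falls in 15, with a median of 1.92. The APR enzymes, which reduce activated sulfate, all rose: APR1 from 30.6 to 131 FPKM, APR2 from 11.1 to 36.8 and APR3 from 19.7 to 118 FPKM (2.57). Both root uptake transporters fell, SULTR1;2 from 109 to 22.2 FPKM (-2.28) and SULTR1;1 from 4.54 to 0.662 FPKM. Genes that sulfur shortage induces did not move alike. GGCT2;1, which recycles glutathione, rose from 1.01 to 45.6 FPKM (5.36), LSU1 from 1.71 to 27.1 (3.91) and SDI1 from 0.839 to 9.32 FPKM, while LSU2 fell from 6.76 to 1.16 FPKM (-2.45) and BGLU28, at 0.0160 and 6.80 FPKM, was not called.

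Iron and phosphate genes were mixed. Of 8 tested iron regulators 4 fell and 1 rose, with FRU (FIT), the master regulator of uptake, from 8.26 to 2.18 FPKM (-1.87). Of 14 uptake, secretion and storage genes 8 rose and 3 fell: the transporter IRT1 went from 2.67 to 11.5 FPKM (2.06), FRO2 from 1.13 to 2.66 and the citrate exporter FRD3 from 3.57 to 32.9 FPKM. Phosphate genes had 8 falls and 3 rises in 13. SPX1, a phosphate-responsive inhibitor of PHR1, fell from 400 to 158 FPKM (-1.34), the lipid-remodelling enzyme MGD3 from 47.4 to 6.34 FPKM (-2.88) and the transporter PHT1;2 from 31.6 to 1.24 FPKM (-4.56), and PHT1;4 rose from 40.8 to 99.2 FPKM.

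Read across lists, the shares called higher ran from 0 in the low-oxygen, heat shock, ERF-VII, endodermis and non-hair lists to 87.5% in the indole, flavonoid and expansin lists, against 26.1% among all genes tested. Of the 701 list entries, which hold 699 distinct genes, 619 were tested and 450 called. Among all genes tested 52.8% were called. The lists were chosen with earlier results of these data known, so the total is only a description.

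**Figure D5:**
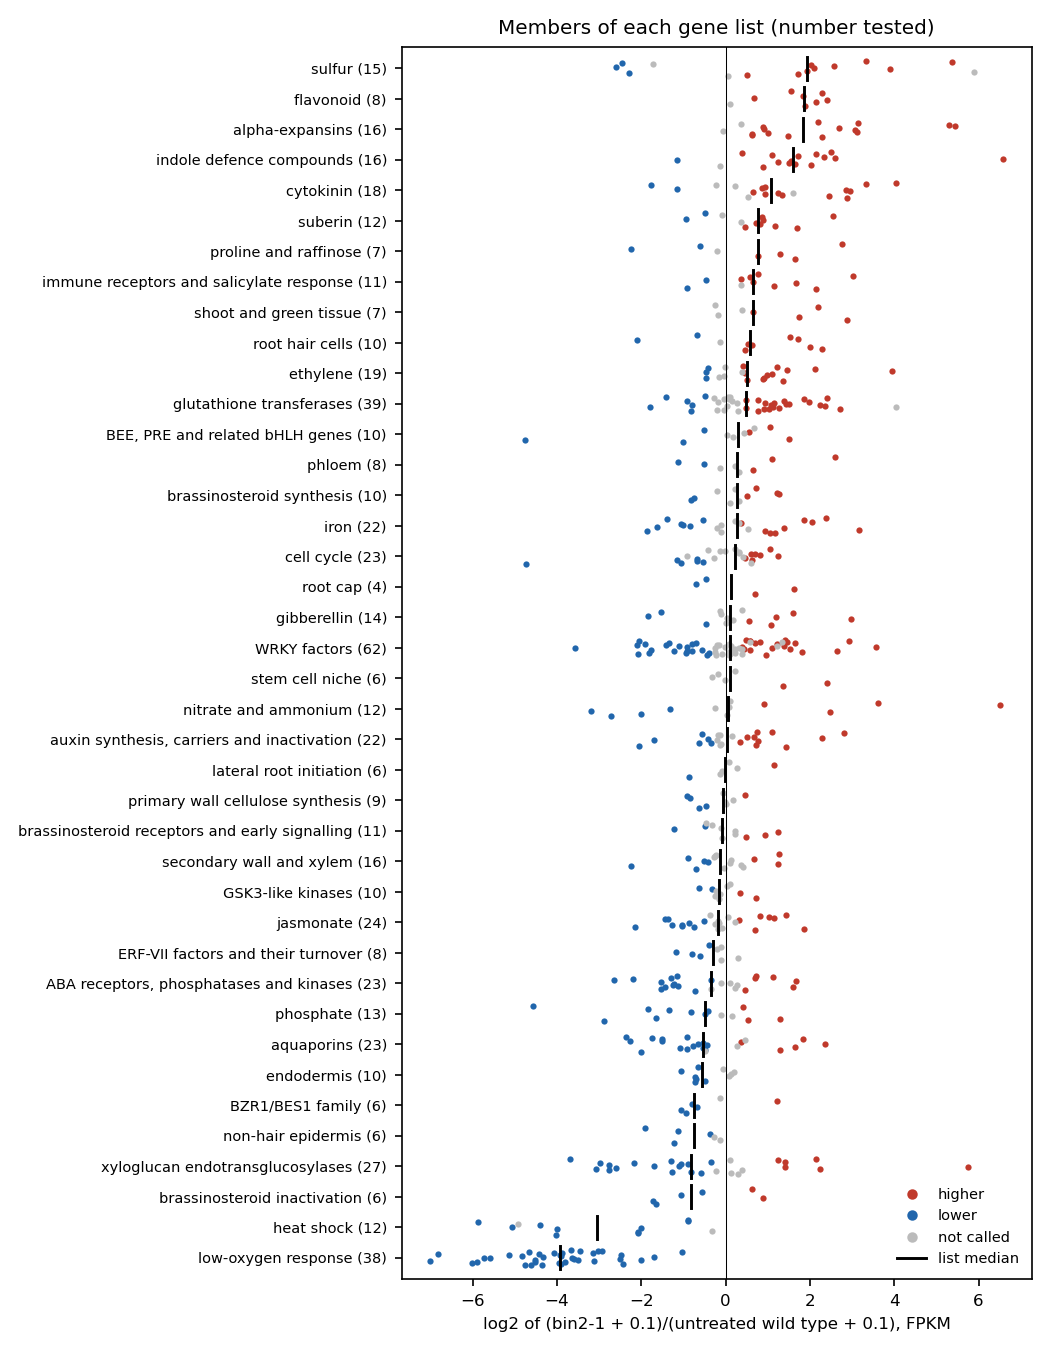
log2 difference between bin2-1 and untreated wild type (horizontal axis) for each tested member of the 40 gene lists (rows, with the number tested), ordered by list median (black bar). Red members were higher and blue members lower at q under 0.05, and grey members were not called. The low-oxygen list lies furthest left, with a median of -3.92, and the sulfur list furthest right, with 1.92.

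The 8 genes with the largest rise in FPKM were named by that size and not from a list. PYK10, a beta-glucosidase stored in ER bodies, went from 1016 to 3326 FPKM (1.71), BGLU21 from 1033 to 2651 (1.36) and PBP1, which binds PYK10, from 1057 to 2303 FPKM. ATMS1, methionine synthase, went from 1047 to 2245 FPKM and HOG1, which removes the by-product of methyl transfer, from 1647 to 3021 FPKM. AT5G26260 (980 to 2414 FPKM) and the thioredoxin TRX3 (1454 to 2539 FPKM) completed the 8 largest with HSC70-1. A list of 10 methionine cycle genes, ATMS1 and HOG1 among them, was made after the values were seen. In it 8 rose and 0 fell, with a median of 0.86, and SAM2 and MAT4 were not called. Its largest rises were of ATMS2 from 31.1 to 310 FPKM (3.31), SAHH2 from 38.7 to 282 (2.86) and MAT3 from 220 to 786 FPKM (1.84). The largest falls in FPKM were of ADH1, AT5G65207 (4917 to 181 FPKM, -4.76), PDC1, AT2G05510 (3318 to 1141 FPKM), AT1G54410, EXL2 (2190 to 196 FPKM, -3.48), NIP2;1 and AT4G27450.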

How the data were processed

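Total RNA was made into TruSeq libraries and sequenced on a HiSeq2000 with 6 barcoded libraries to a pool, per the labels' protocols. TopHat, Cufflinks and build TAIR10 are named in the submitters' processing notes, while their versions, the strand setting and the annotation were not given in the sources used here. The authors deposited 1 table per comparison with 1 value per group, read here as FPKM because Cufflinks is named. The table also holds the ratio of the 2 group values as a fold change, and a p-value and q-value that the authors deposited without the name of their test. With no value per library, no fit of replicates was made and depth is unknown, so p-values speak only for these libraries and their spread may be technical. Antisense or overlapping partners may share reads.

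Genes with at least 1 FPKM in either group were kept, and those with p below 1 were counted as tested (19190 of 19270). Calls use q under 0.05 and the sign of the log2 difference with a pseudocount of 0.1 FPKM. A further 286 genes past that q lie outside the rule. Genes were matched to RefSeq TAIR10.1, which holds 32810 of 33557 identifiers. Members and lists were chosen with earlier results of these data known; 16 list names absent from RefSeq were matched by identifier. Named genes were the 12 highest and 12 lowest log2 differences, genes at 0 in 1 group, the 8 largest rises and falls in FPKM, ABI5, BIN2, BZR1 and list members; not all are printed. The promoters of AT5G10040 (inside a neighbouring gene), DWF4 and CPD (no brassinosteroid element in the window) are not shown. The Benjamini-Hochberg step was tested on simulated data. Python 3.11.15, pandas 2.3.3, numpy 2.4.6 and matplotlib 3.10.9 were used.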

Additional observations from a re-analysis of the deposited data

How the results depend on the processing

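The counts of 5012 genes higher and 5112 lower stayed within 1.5 times under a q of 0.01 and an adjustment recomputed over these genes. So they did with a minimum of 5 FPKM or none. Another or no pseudocount and centring on the median also left them within that range. Pseudocount and centring leave the deposited q as it is, so they could hardly change a call. A minimum of 2-fold left 1943 and 1954. Counts within gene lists moved by more than 1.5 times in 55 cases and did not in 585. Under the 2-fold minimum 39 moved and 41 did not, under 5 FPKM 11 and 69, and under the stricter q 5 and 75. Under each other setting all 80 stayed. With another or no pseudocount or centring they could hardly move, so the 585 is no measure of stability. List medians moved by more than 0.1 in 30 cases and did not in 170. No paired analysis was possible because the table holds 1 value per group. For the same reason leaving out a library in turn and the replicate block were not run. The depth of the libraries is unknown, so the precision of low values cannot be given.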

Other observations

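Some called genes were listed at 0 in 1 group. 67 genes had 0 in untreated wild type and at least 1 FPKM in bin2-1, up to 183 FPKM for AT4G16215. Of these, 52 were also listed at 0 in ABA-treated wild type and 39 had at least 1 FPKM in bzr1-D/bin2-1. Of the 67, 19 were on chromosome 3 and 20 on chromosome 5, which hold 19.7% and 23.3% of the genes tested. Of the 20 on chromosome 5, 18 lay in the stretch from AT5G43030 to AT5G59060, drawn after their positions were seen. That stretch holds 27.2% of the tested genes of chromosome 5, and the cause of the grouping was not tested. AT4G16215, AT4G19239 (73.0 FPKM) and AT4G19240 (29.0 FPKM), at 0 in wild type, are on chromosome 4, 303, 65 and 66 genes in order from BIN2. Each was also listed at 0 in bzr1-D/bin2-1, whose label names bin2-1 too, and the cause was not tested. In the other direction 32 genes were listed at 0 in bin2-1 and at least 1 FPKM in wild type. Of these, 15 were on chromosome 1, which holds 5010 of the 19190 genes tested. In ABA-treated wild type 21 of the 32 had at least 1 FPKM. The largest was AT5G44306 at 126 FPKM. A gene listed at 0 gives no fold change.

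Size and call did not always go together. 235 genes differed at least 4-fold without a q under 0.05, and in 159 of them the lower group was under 0.1 FPKM. The 235 include genes that were not counted as tested, such as MIR842, at 163 FPKM in wild type and 0 in bin2-1. One example, chosen after its values were seen, is SADHU3-2, a retroelement, at 0.0244 FPKM in wild type and 113 in bin2-1 (q = 0.337 in the authors' deposited table).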
